A study of Mus musculus with 6 samples.

Results

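The Hippo kinase cascade was followed through 10 genes in mouse CD4 T cells, taken by name as its core kinases, their adaptors and 3 upstream regulators, out of 23962 genes with a value. Stk3 (MST2) and Stk4 (MST1) are the upstream kinases, Lats1 and Lats2 the downstream kinases, Sav1, Mob1a and Mob1b the adaptors, and Nf2, Taok1 and Map4k4 act upstream. They were not picked by a measured value, though earlier results of these data were known when they were chosen. All 10 had values in every library, from 18 RefSeq transcripts.

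In the canonical pathway MST kinases, held by Sav1, phosphorylate LATS kinases and MOB1, and the LATS kinases phosphorylate YAP and TAZ, which are then kept out of the nucleus or degraded. TAO kinases can activate MST kinases, MAP4K kinases can act on LATS beside them, and the NF2 protein (merlin) brings LATS to the membrane. In lymphocytes MST1 is best known for roles in adhesion, homing and survival of naive T cells, which run in part outside this canonical line.

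Total RNA was sequenced from 6 libraries, 1 for each pairing of 2 genotypes and 3 populations, all from lymph nodes and spleens of C57BL/6 mice. WT mice were compared with YAP cKO mice (YAP flox/flox,CD4-Cre+), in which Cre driven by the CD4 promoter acts in the T cell lineage and not in regulatory T cells alone. The populations were naive CD4 T cells (CD4+ CD62L+ CD25-), freshly sorted natural regulatory T cells (nTregs, CD4+ CD62L+/- CD25 high), and sorted nTregs stimulated with plate-bound anti-CD3 and soluble anti-CD28, each at 2 µg/ml, together with 100 U/ml of IL-2. The labels give the stimulation as 24 h in one place and 48 h in another. How many mice stand behind a library is not stated, nor whether the WT mice carried Cre or a floxed allele. In each sentence of paired values the WT library comes first.

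Levels are FPKM (fragments mapped per kilobase, relative to the fragments of the library), so they can be compared between genes. Between 10202 and 10886 genes per library had at least 1 FPKM, and a 2 kb transcript at 5 FPKM stood on about 70.4 to 91.3 fragments. Foxp3, the defining factor of nTregs, followed the population labels, at 2.98 and 3.30 FPKM in naive cells, 46.6 and 45.9 in fresh and 56.9 and 57.8 in stimulated nTregs. The genotype label had no such check. Yap1 was listed at 0 in both naive and both fresh nTreg libraries, and stood at 0.169 FPKM in the stimulated library labelled WT and 0.235 in the one labelled cKO, so "cKO" below means the library carrying that label. Of 6 B cell markers, the summed level was 6.87 to 7.03 FPKM in naive cells, 39.1 to 46.7 in fresh and 10.7 to 11.1 in stimulated nTregs, mostly from Cd74 and Cd79b. The myeloid markers summed to at most 4.75 FPKM in any library and the CD8 T cell markers to at most 8.90, and 3 of 6 stromal and endothelial markers, Col1a1, Col3a1 and Cdh5, stayed at or below 0.145. The other 3 of that list were present, with Pecam1 at 33.3 to 79.1 FPKM, Vim at 150 to 208 in naive cells, 239 and 314 in fresh and 684 and 975 in stimulated nTregs, and Epcam at 0.685 and 0.812, then 5.50 and 5.01, then 19.0 and 24.7. Vim and Epcam rose in both population comparisons, and the summed level of the 6 markers was 221 and 288 FPKM, then 297 and 372, then 742 and 1033. Their part in the results was not tested. In bulk RNA, fewer cells of a type and less RNA per cell cannot be told apart.

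The cascade was dominated by Stk4 and Mob1a. By mean level over the 6 libraries the order was Stk4, Mob1a, Map4k4, Taok1, Sav1, Lats2, Nf2, Lats1, Mob1b and Stk3, from 117 FPKM down to 4.95. The 6-library ranges of neighbours did not overlap between Mob1a and Map4k4, Map4k4 and Taok1, Lats1 and Mob1b, or Mob1b and Stk3. The other neighbours overlapped, and Stk4 exceeded Mob1a in only 4 of 6 libraries, since it lay below Mob1a in both stimulated libraries. As deposited, the 10 genes together summed to 459 and 452 FPKM in naive cells, 438 and 427 in fresh and 342 and 318 in stimulated nTregs. Stk4 alone made up 36.0% and 36.0% of that sum in naive cells, 29.1% and 28.8% in fresh and 18.3% and 19.2% in stimulated nTregs. The widest ranges over the 6 libraries as deposited belonged to Lats2 (2.82-fold), Stk3 (2.81-fold) and Stk4 (2.71-fold), and the narrowest to Mob1a (1.14-fold), Taok1 (1.29-fold) and Lats1 (1.30-fold). Setting all FPKM sums equal multiplies the naive libraries by 0.816 and 0.821, the fresh by 0.944 and 0.937 and the stimulated by 1.48 and 1.33. The totals and ranges therefore hold for the deposited scale, while the Stk4 shares do not depend on it.

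**Figure D1:**
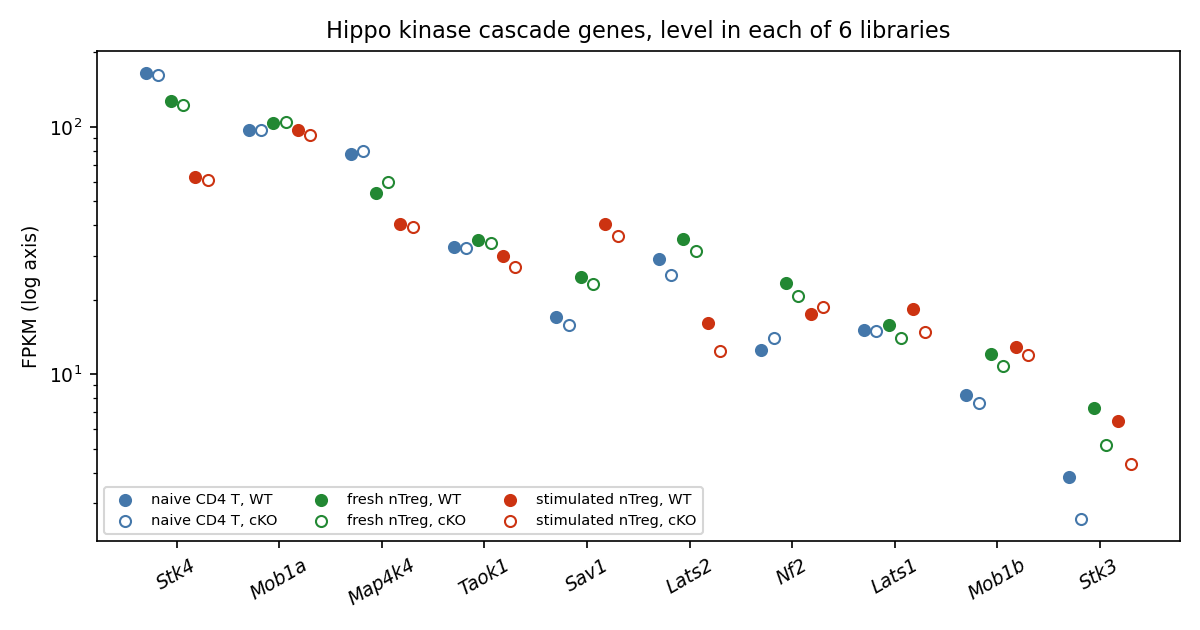
Deposited FPKM (log axis) of the 10 genes in each of the 6 libraries, ordered by mean level, with filled points for WT, open points for cKO and a colour for each population. Stk4 falls from 165 to 60.9 FPKM between the naive and stimulated libraries while Mob1a stays between 92.4 and 105 FPKM, and Stk3 is lowest of the genes throughout.

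Stk4, the MST kinase whose loss in mice depletes naive T cells, was the most abundant member in resting cells. It stood at 165 and 163 FPKM in naive cells, 128 and 123 in fresh and 62.4 and 60.9 in stimulated nTregs. The 3 populations did not overlap, and within each the 2 genotypes lay close together, at 0.962 to 0.985 times WT. Stk4 lies on chromosome 2 (GRCm38.p6, 164074113 to 164155524, plus strand). The 250 bases upstream of its listed transcript start at 164074138 are shown because Stk4 and Lats2 had the largest changes of the members on stimulation, as deposited and relative to the median of all genes, though not at equal FPKM sums. Capitals mark the matches, on either strand, to 1 of 6 short motifs searched (TEAD GGAATG, FOXO GTAAACA, ETS CCGGAAG, GC box GGGCGG, E-box CACGTG and AP-1 TGANTCA), sequences from RefSeq, GRCm38.p6.
Stk4, chr2:164073888-164074137, plus strand: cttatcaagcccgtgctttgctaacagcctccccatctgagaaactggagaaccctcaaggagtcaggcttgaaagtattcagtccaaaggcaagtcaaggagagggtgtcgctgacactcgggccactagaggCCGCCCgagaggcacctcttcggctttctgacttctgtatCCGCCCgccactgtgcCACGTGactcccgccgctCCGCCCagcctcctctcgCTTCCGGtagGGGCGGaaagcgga
This window holds 4 GC boxes, 1 E-box and 1 ETS match, and no TEAD, FOXO or AP-1 match. Over 32851 promoters with windows of this length, 32.7% hold a GC box, 6.02% the E-box and 6.91% the ETS letters. Such a match describes the letters and says nothing of binding.

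Stk3, the paralog of Stk4 that pairs with it in the cascade, was the least abundant member. It stood at 3.83 and 2.60 FPKM in naive cells, 7.31 and 5.17 in fresh and 6.45 and 4.34 in stimulated nTregs. The cKO library was the lower one in each population, and both naive libraries lay below all nTreg libraries. Stk4 exceeded Stk3 by 43.1-fold and 62.6-fold in naive cells, 17.5-fold and 23.8-fold in fresh and 9.68-fold and 14.0-fold in stimulated nTregs. Stk4 thus supplied 90.6% to 98.4% of the summed FPKM of the 2 MST kinase genes.

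The LATS kinases phosphorylate YAP and TAZ directly. Lats2 stood at 29.3 and 25.2 FPKM in naive cells, 35.1 and 31.4 in fresh and 16.1 and 12.5 in stimulated nTregs. Lats1 stood at 15.1 and 14.9 FPKM in naive cells, 15.8 and 14.1 in fresh and 18.3 and 14.8 in stimulated nTregs. Lats2 was the higher of the pair in the 4 resting libraries, by 1.69-fold to 2.23-fold, and the lower in both stimulated libraries, at 0.877 and 0.840 times Lats1. As deposited, the Lats1 libraries of the 3 populations overlapped, whereas both stimulated Lats2 libraries lay below every resting one. Lats2 lies on chromosome 14 (57689662 to 57746212, minus strand) and has 2 listed starts, a distal one at 57746123 and an internal one, with the bases upstream of both shown with the same capitals as for Stk4.
Lats2 distal start, chr14:57746124-57746373, minus strand: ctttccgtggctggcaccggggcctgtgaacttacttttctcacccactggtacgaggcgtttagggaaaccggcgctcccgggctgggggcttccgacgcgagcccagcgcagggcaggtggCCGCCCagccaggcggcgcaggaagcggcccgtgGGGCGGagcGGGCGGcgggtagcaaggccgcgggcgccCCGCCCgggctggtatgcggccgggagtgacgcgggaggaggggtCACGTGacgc
Lats2 internal start, chr14:57734419-57734668, minus strand: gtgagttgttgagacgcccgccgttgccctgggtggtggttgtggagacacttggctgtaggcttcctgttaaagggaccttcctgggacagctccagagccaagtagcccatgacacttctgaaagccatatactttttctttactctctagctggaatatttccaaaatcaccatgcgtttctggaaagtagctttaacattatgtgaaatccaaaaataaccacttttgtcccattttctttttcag
The window at the distal start is 74% G and C and holds 4 GC boxes and 1 E-box, and the window at the internal start is 44.8% G and C with no match to any of the 6 motifs. The TEAD letters, present in 12.6% of all promoters, are in neither window. The long transcript, variant A, held 82.7% to 91.5% of the gene's FPKM. The remaining 8.49% to 17.3% went to variant B, a 786-nt transcript that begins inside the gene and stood on about 10.6 to 36.9 fragments per library. GENCODE vM21 places the start of variant B at 57734300, whereas the internal window ends at 57734419. That window therefore does not adjoin the GENCODE start, and whether it acts as a promoter is not known here. Another annotated gene on the same strand, Gm49361, shares 53.2% of the exonic bases of Lats2 and had no value of its own here, so its reads could have been counted to Lats2.

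The adaptors behaved differently from one another. Sav1, the scaffold that holds MST kinases, stood at 17.0 and 15.7 FPKM in naive cells, 24.6 and 23.2 in fresh and 40.4 and 36.1 in stimulated nTregs. The populations did not overlap, with the order naive, fresh, stimulated in both genotypes. On the opposite strand Atl1 overlaps 52.9% of the exonic bases of Sav1. It was listed at 0.157 to 1.16 FPKM, and although the libraries were strand-specific the use of strand in counting is not stated, so reads of the pair could be mixed. Mob1a, the more abundant of the MOB1 adaptors that activate LATS, stood at 97.5 and 97.0 FPKM in naive cells, 104 and 105 in fresh and 97.6 and 92.4 in stimulated nTregs. Mob1b stood at 8.24 and 7.63 FPKM in naive cells, 12.1 and 10.8 in fresh and 12.9 and 11.9 in stimulated nTregs. Mob1b supplied 7.79% and 7.29% of the MOB1 sum in naive cells, 10.5% and 9.35% in fresh and 11.7% and 11.4% in stimulated nTregs.

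Of the upstream regulators, Map4k4, a kinase that can phosphorylate LATS, was the most abundant. It stood at 77.4 and 79.7 FPKM in naive cells, 54.0 and 59.7 in fresh and 40.4 and 39.3 in stimulated nTregs. As deposited the populations did not overlap, in the opposite order to Sav1, but the log2 change of Map4k4 on stimulation was 0.06 at equal FPKM sums. Nf2, which encodes merlin, stood at 12.5 and 13.9 FPKM in naive cells, 23.5 and 20.7 in fresh and 17.5 and 18.7 in stimulated nTregs. As deposited its populations were also separate, with the fresh nTregs highest, but its log2 change on stimulation was 0.28 at equal FPKM sums. Taok1, a TAO kinase that activates MST kinases, varied little as deposited, at 32.8 and 32.4 FPKM in naive cells, 34.8 and 33.9 in fresh and 30.0 and 27.0 in stimulated nTregs.

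Between the genotypes every cascade gene lay within 2-fold, and the largest difference was in Stk3. With 1 library per group, a difference within a population has no test. It is given as cKO minus WT of log2(FPKM + 1), which understates the change of low genes, beside a 95% interval of the log2 FPKM ratio for counting error only, from estimated fragments. None of the 10 genes was 2-fold apart in any population, where, in the order naive, fresh, stimulated, 1.19%, 1.03% and 1.88% of all genes with at least 1 FPKM were.

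Stk3 was lower in the cKO library, with differences of -0.42 (naive), -0.43 (fresh) and -0.48 (stimulated) on the log2(FPKM + 1) scale, or 0.679, 0.707 and 0.673 times WT as FPKM ratios. The counting intervals of the log2 ratio ran from -1.03 to -0.09, from -0.82 to -0.18 and from -0.93 to -0.21, none reaching 0. Of all genes, 7.63%, 7.77% and 12.6% were at least as far apart in those populations. Lats2 was next, at 0.859, 0.894 and 0.775 times WT, with counting intervals of -0.34 to -0.09, -0.27 to -0.05 and -0.55 to -0.19. Its differences were less unusual, since 24.9%, 37.9% and 23.6% of all genes were at least as far apart. Lats1 was 0.986, 0.888 and 0.808 times WT, and only the fresh and stimulated intervals lay below 0. Stk4 was 0.985, 0.962 and 0.976 times WT. Nf2 and Map4k4 changed side between populations, with Nf2 at 1.11, 0.883 and 1.07 times WT and Map4k4 at 1.03, 1.11 and 0.972 times WT.

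Counted by direction, 8 of 10 genes were lower in the cKO library of naive cells, 8 in fresh and 9 in stimulated nTregs, where 50.2%, 50.0% and 44.8% of all genes were lower. The median difference of the 10 genes was -0.02, -0.11 and -0.13, against 0.00, 0.00 and 0.04 over all genes. Taken across the 3 populations in a limma model with terms for population and genotype, none of the 10 genes passed an adjusted p of 0.05, and 42 of 11214 genes (0.375%) did. At an unadjusted p under 0.05 the model held 2 of the 10 genes and 1345 genes in all. These were Stk3, with a log2 difference of -0.44 (SE 0.09, adjusted p = 0.181), and Lats2, with -0.24 (SE 0.07, adjusted p = 0.314), both lower in 3 of 3 pairs. With 1 library per group, the p-values rest on how the genotype difference varied over the 3 populations. They do not measure a spread between mice or between repeated libraries. Of 10 proliferation genes, 1 passed for the genotype (Top2a, log2 difference 0.72), though not without WT fresh or without cKO fresh nTregs. The median genotype difference of these 10 was 0.47. Their summed level was 347 and 303 FPKM in naive cells, 294 and 320 in fresh and 411 and 588 in stimulated nTregs. Pcna alone held 299 and 257, 231 and 234, and 212 and 254 FPKM of these sums, so they follow the other genes poorly. The 6 NK and cytotoxic markers summed to 20.4 and 12.9, 20.5 and 32.3, and 24.0 and 67.6 FPKM, mostly from Nkg7 in nTregs, with Ncr1 at most 0.401. Their part in the differences was not tested.

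**Figure D2:**
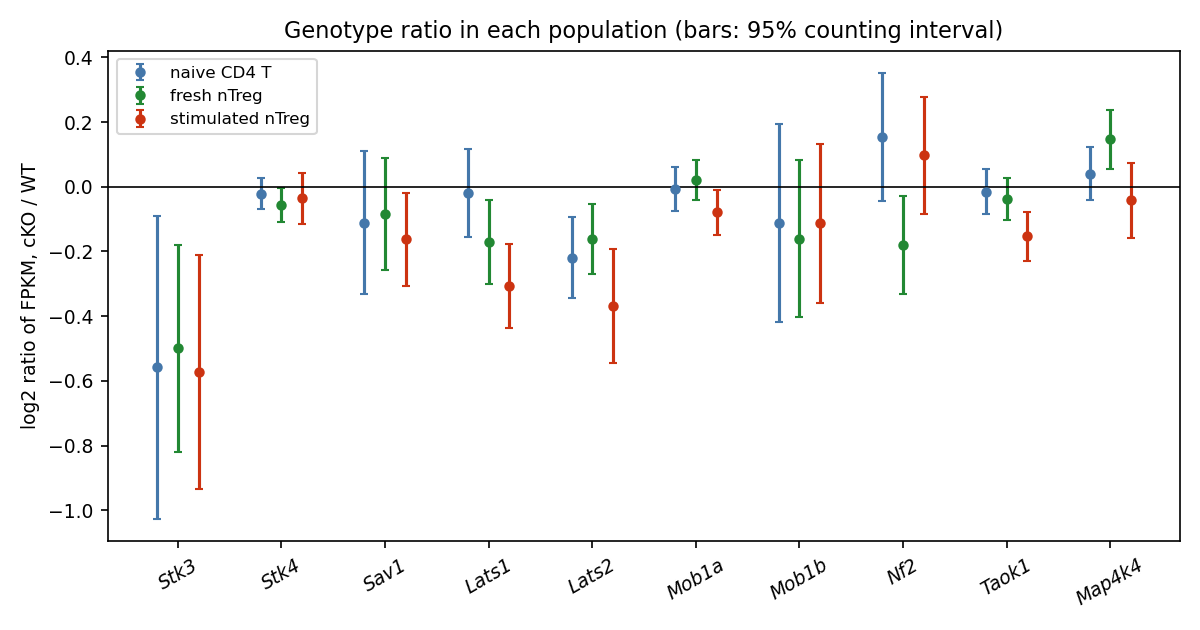
Log2 ratio of FPKM, cKO over WT, for the 10 genes in each population, with bars for the 95% counting interval and 1 library per point and genotype. Stk3 and Lats2 lie below 0 with their whole interval in all 3 populations, and Stk4 lies within 0.06 of 0.

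Fresh nTregs differed from naive cells in 6 of the 10 genes, where 31.3% of all genes did. Stk3, Nf2, Sav1 and Mob1b rose (4 of 10, where 16.5% of all genes rose), and Map4k4 and Stk4 fell (2 of 10, where 14.8% fell). Stk3 rose by a log2 change of 0.78 (SE 0.12, limma adjusted p = 0.00479), Nf2 by 0.70 (SE 0.11, adjusted p = 0.00597), Sav1 by 0.52 (SE 0.08, adjusted p = 0.00574) and Mob1b by 0.48 (SE 0.10, adjusted p = 0.0142). All 4 were higher in the fresh library of both genotypes, by 1.42-fold to 1.99-fold as FPKM ratios. Map4k4 changed by -0.46 (SE 0.08, adjusted p = 0.00865) and Stk4 by -0.38 (SE 0.07, adjusted p = 0.0101), to 0.697 and 0.750 times naive for Map4k4 and 0.774 and 0.756 for Stk4. Lats2 at 0.28 (adjusted p = 0.0590), Mob1a at 0.10 (adjusted p = 0.337), Taok1 at 0.07 (adjusted p = 0.531) and Lats1 at -0.01 (adjusted p = 0.964) did not pass. The median change of the 10 genes was 0.19, against -0.02 over all genes.

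At equal FPKM sums in all libraries, Map4k4 was at -0.26 (adjusted p = 0.0995) and Stk4 at -0.18 (adjusted p = 0.147), and neither passed. Lats2, not called as deposited, rose there by 0.47 (limma adjusted p = 0.0219), where 24.4% of all genes rose. It also passed with libraries scaled by the median of gene ratios, at 0.33 (limma adjusted p = 0.0406). The calls also rest on few libraries. Leaving out WT fresh nTregs raised the adjusted p of Stk3 to 0.0520, of Nf2 to 0.0681 and of Sav1 to 0.0586, and leaving out cKO fresh nTregs raised that of Stk3 to 0.0564 and of Sav1 to 0.0812. Leaving out any one naive or fresh library ended the calls of Mob1b (adjusted p 0.0739 to 0.136), Map4k4 (0.0559 to 0.122) and Stk4 (0.0758 to 0.145). The direction of the 6 genes called as deposited held in each of these fits, in which the lone library of a population is assumed to vary like the others. The summed B cell markers, given above, were also higher in fresh nTregs, with Ms4a1 at or below 0.165 FPKM in every library, and their part in these changes was not tested.

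As deposited, stimulation of nTregs brought the largest changes in the cascade, in opposite directions for its parts. Lats2 fell by a log2 change of -1.17 (SE 0.09, limma adjusted p = 0.000326) and Stk4 by -1.01 (SE 0.07, adjusted p = 0.000247), while Sav1 rose by 0.65 (SE 0.08, adjusted p = 0.00152). As FPKM ratios of stimulated over fresh these were 0.458 and 0.397 for Lats2, 0.489 and 0.496 for Stk4, and 1.64 and 1.55 for Sav1. Map4k4 changed by -0.50 (SE 0.08, adjusted p = 0.00389) and Taok1 by -0.26 (SE 0.08, adjusted p = 0.0379), the latter to 0.862 and 0.796 times fresh. In all, 5 of 10 genes passed, where 49.9% of all genes did. Of the 10, 4 fell and 1 rose, where 27.3% of all genes fell and 22.6% rose. Nf2 at -0.27 (adjusted p = 0.0839), Stk3 at -0.18 (adjusted p = 0.230), Mob1a at -0.13 (adjusted p = 0.173), Lats1 at 0.14 (adjusted p = 0.311) and Mob1b at 0.11 (adjusted p = 0.400) did not pass.

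The scale of this comparison depends on the scaling. The deposited FPKM of stimulated libraries summed to 534274 and 595524, against 837179 and 843887 in fresh nTregs, and setting all sums equal moved the median change of all genes from -0.05 to 0.47. Relative to the median of all genes, Lats2 was at -1.13 as deposited and -1.10 at equal sums, Stk4 at -0.97 and -0.91, Sav1 at 0.70 and 0.74, and Map4k4 at -0.45 and -0.41. Lats2, Stk4 and Sav1 passed in their direction under both scalings and in every fit that left out a library. In absolute terms at equal sums Map4k4 was at 0.06 (adjusted p = 0.604) and Taok1 at 0.30 (adjusted p = 0.0416), the opposite sign for both. Mob1a at 0.44 (adjusted p = 0.00522), Stk3 at 0.31 (adjusted p = 0.0804) and Nf2 at 0.28 (adjusted p = 0.0693) were also of opposite sign there. Lats1 at 0.68 (limma adjusted p = 0.00311) and Mob1b at 0.64 (limma adjusted p = 0.00227) kept their sign and passed there, where 59.2% of all genes rose. The Map4k4 call was also lost without cKO fresh nTregs (adjusted p = 0.0612). The Taok1 call was lost without any one of WT naive, cKO naive, WT fresh, cKO fresh or cKO stimulated cells (adjusted p 0.0667 to 0.254). The 2 population comparisons share the fresh nTreg libraries and are not independent. Of the 10 proliferation genes 9 rose with stimulation, Mki67 from 11.2 and 15.9 FPKM to 40.5 and 58.6, and their part was not tested.

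For Stk4, Sav1 and Lats2, which as deposited moved most on stimulation, the response had the same direction in both genotypes. The cKO response minus the WT response, on the log2(FPKM + 1) scale, was 0.02 for Stk4, -0.08 for Sav1 and -0.19 for Lats2. As log2 ratios with no added constant, the counting intervals of that difference ran from -0.07 to 0.12 for Stk4 and from -0.31 to 0.15 for Sav1, and from -0.41 to just above 0 for Lats2. It was largest for Nf2, at 0.26, with a counting interval of 0.04 to 0.51, since Nf2 went to 0.745 times fresh in WT and to 0.903 in cKO. Taok1, Map4k4 and Mob1a, at -0.11, -0.18 and -0.10, had intervals below 0. With 1 library in each of the 4 groups these differences have no test.

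**Figure D3:**
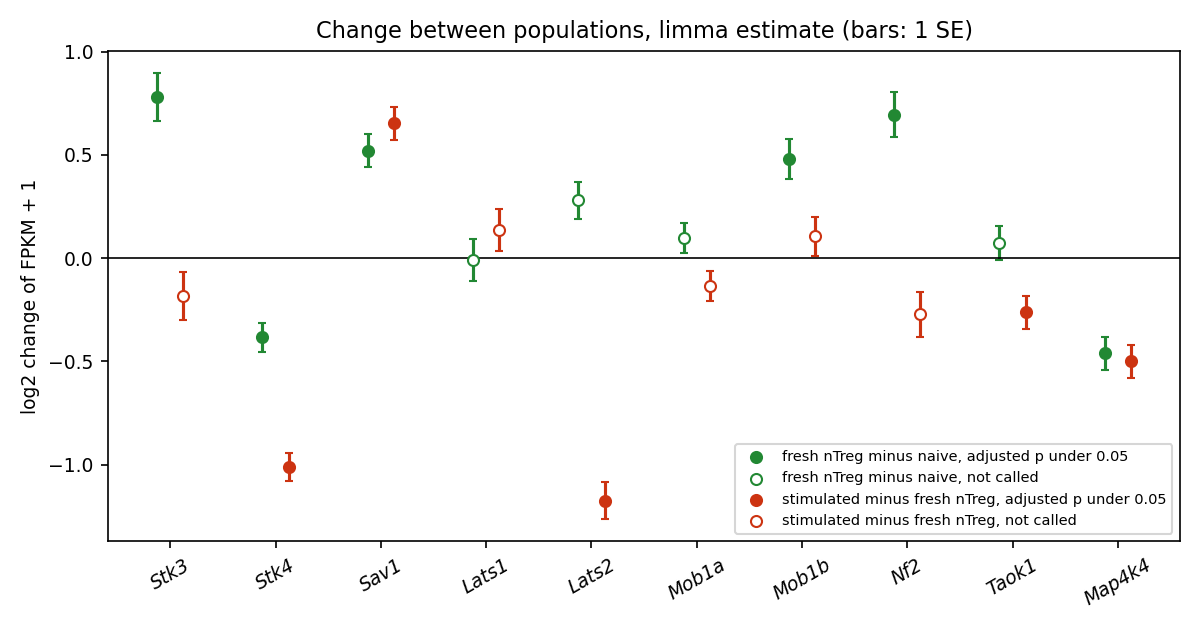
Limma estimates of the log2 change of FPKM + 1 for the 10 genes, fresh nTreg minus naive in green and stimulated minus fresh nTreg in red, with bars of 1 SE and filled points for an adjusted p under 0.05. Lats2 and Stk4 are lowest on stimulation at -1.17 and -1.01, and Sav1 is the one gene that passes upward in both comparisons.

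The share of Map4k4 held by one splice form was highest in stimulated nTregs, with a clear step from fresh cells in WT and a small one in cKO. Map4k4 has 4 listed transcripts over chromosome 1 (39900902 to 40026310, plus strand) that differ in internal coding exons whose lengths are multiples of 3. Variant 3, the only form with a 192-nt exon, held 61.8% and 61.9% of the gene's FPKM in naive cells, 67.4% and 71.3% in fresh and 80.4% and 74.6% in stimulated nTregs. Transcripts with a 162-nt exon (variants 1 and 4) held 25.9% and 27.9% in naive cells, 25.7% and 23.2% in fresh and 13.1% and 16.1% in stimulated nTregs. These exons are shown because their shares moved the most from fresh to stimulated nTregs in WT, though not in cKO. They are in capitals, with 12 bases of the adjoining exons of the transcript on each side (GENCODE vM21, GRCm38).
Map4k4 exon of 162 nt, chr1:40001430-40001591, plus strand: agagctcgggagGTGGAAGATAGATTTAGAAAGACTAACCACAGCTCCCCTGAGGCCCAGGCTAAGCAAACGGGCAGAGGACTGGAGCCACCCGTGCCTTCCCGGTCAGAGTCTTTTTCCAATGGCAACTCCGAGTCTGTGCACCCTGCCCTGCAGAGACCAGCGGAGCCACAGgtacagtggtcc
Map4k4 exon of 192 nt, chr1:40011650-40011841, plus strand: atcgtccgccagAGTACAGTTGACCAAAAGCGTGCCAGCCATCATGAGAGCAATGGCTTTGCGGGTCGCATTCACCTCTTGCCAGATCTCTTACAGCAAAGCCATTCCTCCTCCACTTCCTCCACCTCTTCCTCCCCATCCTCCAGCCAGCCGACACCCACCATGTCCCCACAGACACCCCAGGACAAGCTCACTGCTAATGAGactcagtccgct
The first adds 54 codons and the second 64. Both stimulated libraries lay beyond all 4 resting libraries for each exon. In FPKM, variant 3 was 36.4 and 42.6 in fresh and 32.5 and 29.3 in stimulated nTregs, while variant 4 was 10.4 and 10.7 and then 4.14 and 4.12. The fall of Map4k4 was thus proportionally smaller in variant 3 than in variant 4. Variant 2 held 12.3% and 10.2%, then 6.89% and 5.50%, then 6.46% and 9.26%. A 231-nt exon (variants 1 and 2) showed no such order, at 15.9% and 14.5%, 13.3% and 10.7%, and 9.35% and 14.9%. A 9-nt exon (variants 1, 2 and 3) was at 77.7% and 76.4%, 80.7% and 82.0%, and 89.8% and 89.5%. Shares of transcripts are estimates of the authors' quantification from shared reads, and no test was made of them.

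**Figure D4:**
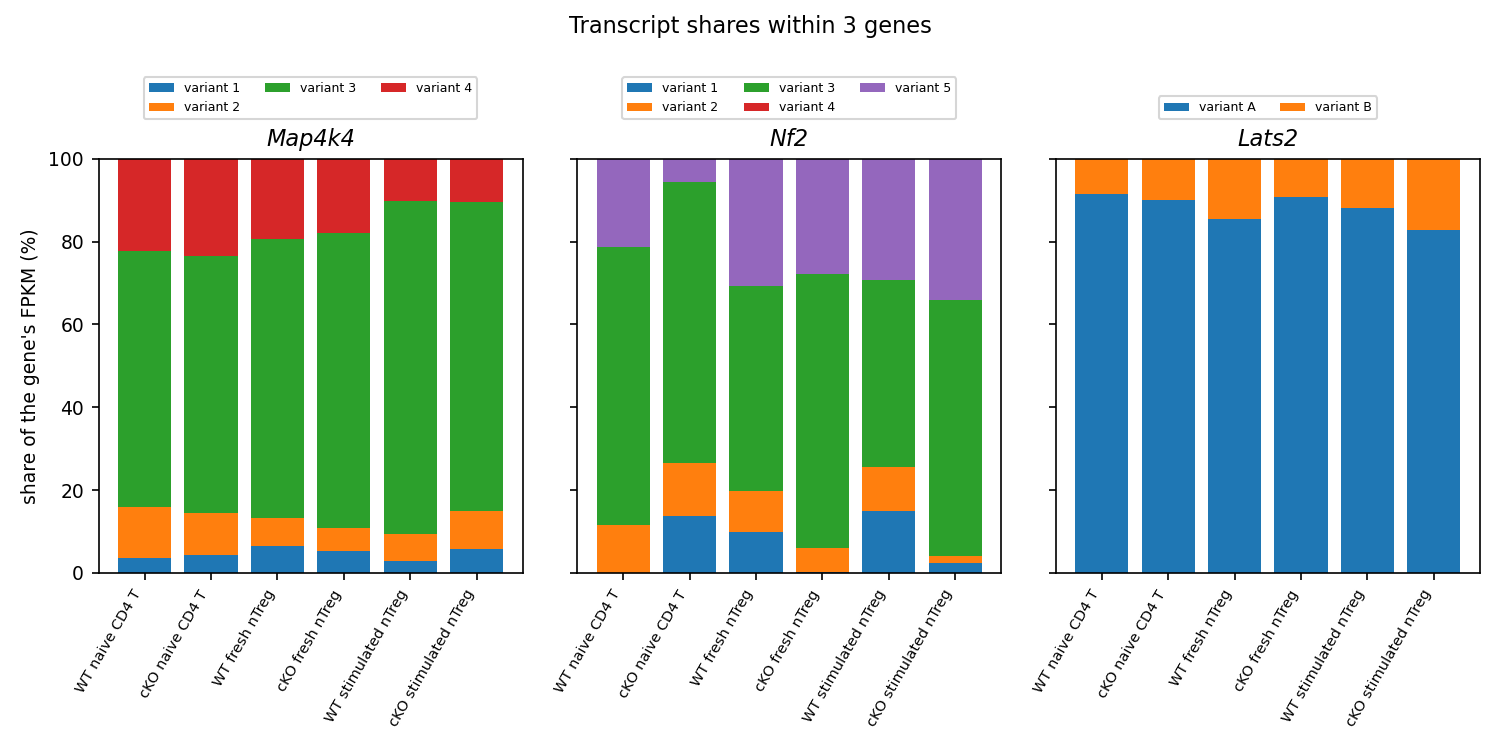
Share of each gene's FPKM (%) held by each listed transcript of Map4k4, Nf2 and Lats2 in the 6 libraries, as stacked bars. Variant 3 of Map4k4 widens from 61.8% in WT naive to 80.4% in WT stimulated cells, and from 61.9% to 74.6% in cKO. The Nf2 shares differ between libraries of 1 population.

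Nf2 was also split over several transcripts, with less order. Variant 3 held 67.1% and 67.6% in naive cells, 49.5% and 66.1% in fresh and 45.1% and 61.7% in stimulated nTregs. A shorter form that begins inside the gene, variant 5, held 21.2% and 5.74%, then 30.7% and 27.9%, then 29.3% and 34.2%. Variant 2 held 11.6% and 12.9%, then 10.0% and 5.87%, then 10.6% and 1.81%. Variant 1 ranged from near 0 to 15.0%, and the libraries of 1 population differed by up to 13.7 percentage points for it. With the highest transcript alone in place of the sum, the change of Nf2 from naive to fresh nTregs was 0.46 (adjusted p = 0.0616), so that call depends on the sum over transcripts.

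The genes around the cascade were counted in 8 further lists. Their counts are to be read against all genes, of which 16.5% rose and 14.8% fell from naive to fresh nTregs and 22.6% rose and 27.3% fell on stimulation, or 24.4% and 5.86% and then 59.2% and 8.98% at equal FPKM sums. Leaving out a naive or fresh library lowered the share of all genes called in both comparisons. List counts from those fits are therefore not to be read against these shares, nor a lower count as a trait of the list. No gene of any of the 8 passed for the genotype, where 0.375% of all genes did. In stimulated against fresh nTregs, 9 of 11 kinases related to the MST, TAO and MAP4K families fell and none rose, where 27.3% of all genes fell. Stk26 (MST4) changed by -0.83, Tnik by -0.67, Taok2 by -0.53 and Map4k5 by -0.50. At equal FPKM sums 1 of the 11 fell and 2 rose, where 59.2% of all genes rose, while without WT or cKO fresh nTregs 3 and 4 of them fell. The list's median relative to all genes was -0.45 as deposited and -0.40 at equal sums, so that the list lay below the median gene under both scalings. All 4 tested RASSF adaptors, scaffolds that bind MST kinases, fell, with Rassf2 at -1.43, Rassf1 at -0.75, Rassf3 at -0.56 and Rassf5 (RAPL), which links MST1 to integrin adhesion, at -0.48, where 27.3% of all genes fell. At equal sums only Rassf2 of the 4 fell (-0.88), and without either fresh nTreg library 3 of 4 fell. Rassf3 and Rassf2 had also been lower in fresh nTregs than in naive cells, by log2 changes of -0.97 and -0.54, the latter not called without cKO fresh nTregs.

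Among 11 partners of MST1 in lymphocytes, 8 fell on stimulation and 1 rose, where 27.3% and 22.6% of all genes did. Il7r, the receptor chain for a survival cytokine of naive T cells, changed by -1.62, Ccr7, a homing receptor, by -1.45, Itgal, the alpha chain of the LFA-1 integrin, by -1.40 and Foxo1, a transcription factor of quiescent T cells that MST1 can phosphorylate, by -1.13. These 4 also passed in that direction at equal sums, where 7 of the list fell and 2 rose, against 8.98% and 59.2% of all genes. Without WT fresh or without cKO fresh nTregs 7 fell and 0 rose. From naive to fresh nTregs 3 of the 11 rose and 3 fell (16.5% and 14.8% of all genes), and 2 rose and 2 fell without any one of the naive or fresh libraries, with Foxp3 at 3.51 and Itgal at 0.84 upward and Il7r at -1.09 and Ccr7 at -0.79 downward.

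Of 7 NDR kinases and other MOB genes, relatives of LATS and MOB1, Stk38l (NDR2) rose on stimulation by 1.06, and Mob3a at -0.96 and Stk38 (NDR1) at -0.39 fell. At equal sums Stk38 was at 0.18 and did not pass, and without either fresh nTreg library 1 of the 7 fell. Stk38, Mob3b and Mob3c were lower in fresh nTregs than in naive cells, by -0.68, -0.56 and -0.41. At equal sums only Stk38 passed, and without any one of the naive or fresh libraries 1 of the 7 genes fell. The phosphatase complex STRIPAK, which opposes MST kinases, held 2 of 10 tested genes that fell, Ppp2ca at -0.38 and Pdcd10 at -0.25, about the share of all genes (27.3%). At equal sums 6 of the 10 rose and none fell, near the 59.2% of all genes that rose, and no gene of it passed without WT fresh or without cKO fresh nTregs. From naive to fresh nTregs only its member Fgfr1op2 passed, at 0.56, and not without cKO naive cells or cKO fresh nTregs. Among 8 genes of LATS turnover and stability, Siah2, a ubiquitin ligase reported to act on LATS2, fell by a log2 change of -1.55, Itch at -0.30 also fell, and Nedd4 at 0.68 and Hsp90ab1 at 0.42 rose. At equal sums Itch was at 0.26, the opposite sign, and without either fresh nTreg library 1 of the 8 fell and none rose. Nedd4 also lost its call without WT stimulated nTregs. From naive to fresh nTregs Nedd4l at -0.81 fell and Wwp1 at 0.52 rose, and neither passed without WT fresh or without cKO fresh nTregs, nor Nedd4l without cKO naive or Wwp1 without WT naive cells.

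The apical inputs and the nuclear effectors of the pathway were mostly low. Of 14 apical and polarity regulators only 2 had at least 1 FPKM in at least 2 libraries. Frmd6 (Willin), a relative of merlin, rose from naive to fresh nTregs by 0.66, not called without cKO fresh nTregs, and fell on stimulation by -0.62. Limd1, a LATS-binding protein, fell on stimulation by -0.54. Without WT fresh nTregs Limd1 and without cKO fresh nTregs Frmd6 lost the call on stimulation. At equal sums neither passed, with Frmd6 at -0.09 and Limd1 at 0.01. Of the effectors, the co-activator Wwtr1 (TAZ) reached at most 0.208 FPKM, Tead3 0.411 and Tead4 0.241, and Yap1 is given above. Tead1 was 0.0118 to 0.0852 FPKM in the resting libraries and 1.12 and 1.22 in stimulated nTregs. Tead2 was 0.422 to 0.735 FPKM and then 1.24 and 1.41. Both reached the level needed for a test through the stimulated libraries alone, so no test of them is given. Vgll4, which competes with YAP for TEAD factors, was the abundant effector, at 72.7 and 72.7 FPKM in naive cells, 64.8 and 66.3 in fresh and 30.1 and 32.2 in stimulated nTregs (log2 change on stimulation -1.05, adjusted p = 0.000265).

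The genes whose pattern lay nearest to Stk4 and Lats2 were sought among 7026 genes with at least 5 FPKM in every library, by the root mean square difference of centred log2(FPKM + 1) over the 6 libraries. For Stk4 they were Ddb2 (0.0391), Tle5 (0.0405), Ddx3x (0.0406), Faah (0.0457) and Cd4 (0.0478). Cd4 itself stood at 220 and 213 FPKM in naive cells, 178 and 177 in fresh and 83.8 and 80.4 in stimulated nTregs. For Lats2 they were Jade2 (0.0623), Sesn1 (0.0850), Clec2i (0.103), Fam107b (0.109) and Gimap3 (0.110). Sesn1 stood at 43.9 and 37.8 FPKM, then 50.7 and 43.1, then 27.3 and 19.2. Its cKO library was lower in all 3 populations, as with Lats2, but it was picked for likeness over these same libraries. That likeness is therefore no separate result. Clec2i stood at 34.3 and 32.9 FPKM, then 35.9 and 37.7, then 19.3 and 15.2.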

How the data were processed

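Reads were aligned with TopHat to mm10 and quantified with Cuffdiff and Cuffnorm, after FastQC, per the submitters' processing notes, which give no versions. The authors deposited FPKM per RefSeq transcript, scaled across 6 libraries (rRNA-depleted, strand-specific, 322 ng RNA, 12 PCR cycles, per the labels' protocols). FPKM depends on transcript length and on the other RNA of a library and carries no counts. Value columns named YKP were read as the YAP cKO libraries, since the others are named WT. The 32860 rows held 32547 distinct transcripts, which were summed per gene (32097 named by a RefSeq gene reference, 401 by the deposited symbol, 49 unnamed and left out). Transcript lengths were taken from GENCODE vM21.

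The worth of 1 fragment per kb, 0.110 to 0.142 FPKM, was estimated from the spacing of low values, of which 77.8% to 80.5% were whole within 0.1 on the log2 scale. Intervals from these fragments cover counting error only, and PCR copies were not marked. With 1 library per group, genotype differences within a population were not tested. Population and genotype effects were fitted with limma 3.58.1 (R 4.3.3, intensity trend, 2 residual and 4.03 prior degrees of freedom) on log2(FPKM + 1) of all 6 libraries, for the 11214 genes reaching 1 FPKM in 2 or more libraries, and adjusted with Benjamini-Hochberg. The code was tested on simulated data. No label pairs the libraries or says that they came from separate cultures, so p-values measure spread between these libraries.

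The 10 genes and all lists were chosen with earlier results of these data known. All 10 genes and all effectors are named, with up to 4 called genes of largest change per other list and contrast, the 5 genes of nearest pattern, and transcripts holding at least 10% of a gene. Alternatives were another pseudocount, filters, scalings, the highest transcript alone, no trend, fewer libraries and another fold.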

Additional observations from a re-analysis of the deposited data

How the results depend on the processing

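No paired analysis was possible because each group holds 1 library and the labels give no shared replicate numbers. The count of genes at least 2-fold apart between genotypes was 124 in naive cells, 112 in fresh and 209 in stimulated nTregs. It became 272, 274 and 490 with a pseudocount of 0.1, 222, 195 and 348 with the highest transcript alone, 421, 420 and 896 at 1.5-fold, and 72 in naive cells at FPKM of at least 5, and no member was counted at 2-fold or 1.5-fold as deposited. Genotype calls, 29 up and 13 down, became 3 and 1 with no filter, 9 and 3 with the highest transcript alone, and 12 to 63 and 4 to 40 leaving out each library. From naive to fresh nTregs, 1854 genes rose and 1656 fell. The fallen were 829 with no filter, 666 at equal FPKM sums and 2487 with only the 4 libraries compared, and leaving out each library gave 915 to 2313 risen and 375 to 2472 fallen. Members that fell were 0 at equal sums, 1 with the highest transcript alone and 0 to 2 leaving out a library, and members that rose were 0 to 5. From fresh to stimulated nTregs, 2531 rose and 3063 fell. With no filter 3945 rose, at equal sums 6725 rose and 1020 fell, and leaving out each library gave 1345 to 2473 and 1549 to 3037. Members that rose were 5 at equal sums, and those that fell were 2 there, 2 with the highest transcript alone and 2 to 4 leaving out a library. At equal sums Mob1a (0.44), Taok1 (0.30) and Map4k4 (0.064) changed sign on stimulation, as did Stk3 (0.31) and Nf2 (0.28), which passed under neither scaling. The cause of these shifts was not tested. Of single-gene values for the members, 130 of 130 for the genotype, 114 of 140 for fresh against naive and 124 of 140 for stimulated against fresh kept their call or lack of one. Among those that passed neither way, the sign changed for Nf2, Map4k4 and Mob1a in some genotype fits (to at most 0.04 from 0) and for Lats1 from naive to fresh nTregs (to 0.18 at equal sums). Low depth limits Stk3 most, at about 65.5 fragments in its lowest library.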
